A study of Mus musculus with 12 samples.

Results

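In all, 10 transcripts of the pancreatic acinar cell were followed across the small intestine samples of 12 mice. The members were 10 rows of the deposited value table, chosen by name from earlier results of these same data: ELA1, ELA2A, CTRB1, CPB1, CPA1, CEL, AMY2, TRY10, PNLIP and CLPS. All 10 were found among the 18090 rows. Their high level in single samples was what chose them, so that pattern is described here and not tested. Each group had 6 mice, labelled P6, of a mixed C57/BL6;129Ola strain. The control group carried no genotype in its labels beyond "control", and the mutants were villinCre;Shp2fl, in which Cre recombinase under the villin promoter acts in the intestinal epithelium on a floxed allele of the phosphatase Shp2 (gene Ptpn11). RNA came from a whole piece of proximal small intestine, so epithelium, muscle, stroma and any tissue attached to the piece were read together, and the labels say nothing of pancreas. The row of the targeted gene, Ptpn11, read 1129.0 to 1480.5 in controls and 1387.8 to 1646.3 in mutants (limma adjusted p = 0.0763), and since the place of its probe on the transcript is unknown it does not check the group labels.

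Acinar cells fill most of the exocrine pancreas and make the digestive enzymes that enter the duodenum, most of them as inactive precursors. The genes share an acinar transcription programme whose core is the factor PTF1, made of Ptf1a, an E protein and Rbpjl. PTF1 is known to bind a pair of short motifs, an E-box and a TC-box. The pancreas lies against the proximal small intestine. Levels are deposited array intensities in arbitrary units. The most negative value of the table, of size 27.8, served as the noise limit, and a row is called within noise where it lay at or under it. Each row is a different probe, so levels are compared between mice and not between genes.

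Here 4 promoters are shown because they belong to members of both kinds met below: Cel and Cela2a (row ELA2A) were within noise in 8 mice, whereas Cela1 (row ELA1) and Ctrb1 had a level in all 12. The windows run from 250 bases before to 50 after the annotated start (RefSeq, GRCm38.p6), 5′ to 3′ on the gene's strand. Capitals mark every TC-box, TTTCCC or on the other strand GGGAAA, and each E-box, CANNTG, that has 0 to 20 bases between it and a TC-box.
Cel promoter, chr2:28563354-28563653, minus strand: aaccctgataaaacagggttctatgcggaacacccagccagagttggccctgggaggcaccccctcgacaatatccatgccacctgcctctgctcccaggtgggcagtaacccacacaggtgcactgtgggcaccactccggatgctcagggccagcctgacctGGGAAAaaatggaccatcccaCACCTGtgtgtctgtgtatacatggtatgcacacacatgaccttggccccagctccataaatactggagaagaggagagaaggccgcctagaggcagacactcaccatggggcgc
Cela2a promoter, chr4:141825956-141826255, minus strand: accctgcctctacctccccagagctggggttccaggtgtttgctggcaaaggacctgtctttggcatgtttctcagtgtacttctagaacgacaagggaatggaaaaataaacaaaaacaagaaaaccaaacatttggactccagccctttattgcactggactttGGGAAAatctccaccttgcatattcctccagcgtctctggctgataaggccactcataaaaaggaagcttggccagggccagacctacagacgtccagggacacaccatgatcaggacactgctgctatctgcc
Cela1 promoter, chr15:100687871-100688170, minus strand: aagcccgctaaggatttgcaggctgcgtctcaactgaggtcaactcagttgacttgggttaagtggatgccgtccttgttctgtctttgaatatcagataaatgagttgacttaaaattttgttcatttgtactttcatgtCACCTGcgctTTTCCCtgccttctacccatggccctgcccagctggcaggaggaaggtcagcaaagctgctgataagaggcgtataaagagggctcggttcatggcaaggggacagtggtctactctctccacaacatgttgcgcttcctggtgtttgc
Ctrb1 promoter, chr8:111690961-111691260, minus strand: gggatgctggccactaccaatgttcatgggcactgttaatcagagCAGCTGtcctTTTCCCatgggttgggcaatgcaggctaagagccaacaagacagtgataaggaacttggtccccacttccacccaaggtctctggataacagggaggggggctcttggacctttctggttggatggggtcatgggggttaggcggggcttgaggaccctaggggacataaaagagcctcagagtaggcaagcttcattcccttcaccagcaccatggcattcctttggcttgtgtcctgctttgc
Of the 7 members with a window in this table, 4 (Cela1, Ctrb1, Cpa1 and Cel) held such a pair, as did 4.65% of the 27025 first-listed windows of all genes. A TC-box alone was found in 5 of the 7 and in 25.17% of all windows, and an E-box in 6 of the 7 and in 72.15%. The pair was present both in members that were within noise in 8 mice and in members that were not. These are matches of letters and not measured binding.

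Among the 12 mice, 4 carried acinar transcripts that were within noise in the 8 others. Control 4 and mutant 1 had high levels, and control 5 and mutant 2 had lower ones. In each of these 4 mice 9 of the 10 members were above noise, against 3 of 10 in each of the 8 other mice. Control 4 was the highest of all 12 mice for 10 of the 10 members and mutant 1 the next for 9 of them. As a share of the summed positive intensity of the array, the members made up 0.620% in control 4, 0.347% in mutant 1, 0.0757% in control 5 and 0.0458% in mutant 2. In the 8 others that share ran from 0.0186% to 0.0488% and came from the 3 members above noise there, Ela1, Ctrb1 and Clps.

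**Figure D1:**
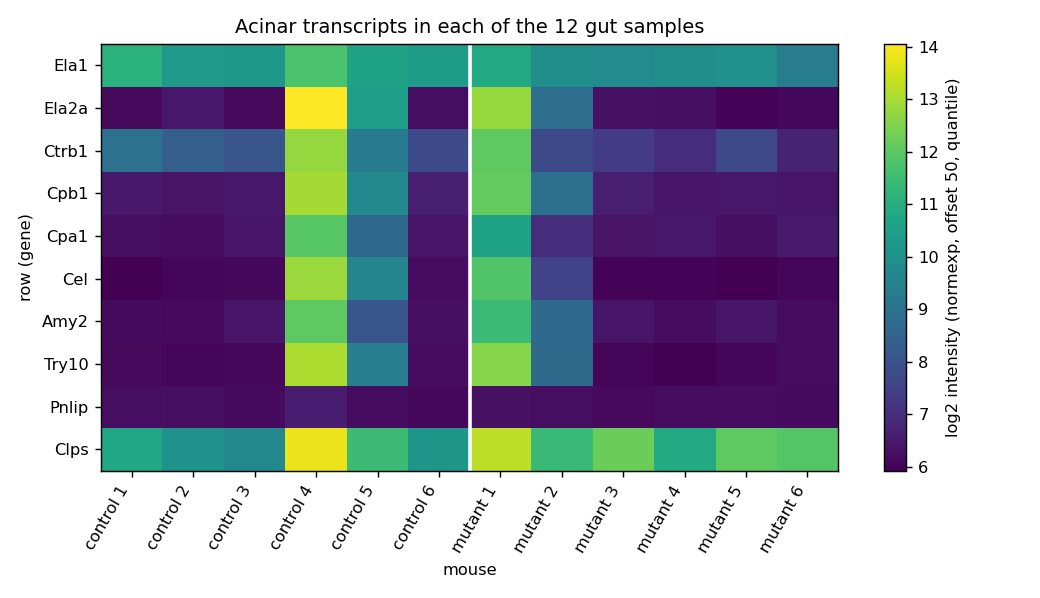
Colour gives the log2 intensity (after normexp with an offset of 50 and quantile normalization) of the 10 members (vertical) in the 12 mice (horizontal), with controls left and mutants right of the white line. Control 4, mutant 1, control 5 and mutant 2 stand out for Ela2a, Cpb1, Cpa1, Cel, Amy2 and Try10, whereas Ela1, Ctrb1 and Clps have a level in all 12 mice and Pnlip in none.

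The serine protease Ela2a (today's Cela2a), a pancreatic elastase, read 16839.6 in control 4, 7043.9 in mutant 1, 1366.1 in control 5 and 382.1 in mutant 2. Its other controls lay between -1.5 and 16.3 and its other mutants between -7.8 and 7.4. The row was thus on in 2 mice of each group and within noise in the other 4 of each. Try10, of the trypsinogen family, read 8348.8, 6093.9, 603.8 and 356.7 in control 4, mutant 1, control 5 and mutant 2. It was between -10.5 and 2.9 in the 8 others.

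The carboxypeptidases remove amino acids from the ends of the peptides that the endopeptidases leave. Cpb1, which cuts after basic residues, read 7895.9 in control 4, 4396.1 in mutant 1, 791.9 in control 5 and 411.5 in mutant 2, against 11.3 to 27.8 in the 8 others. For Cpa1, carboxypeptidase A1, the same 4 mice read 3894.3, 1490.4, 324.3 and 56.8, against 1.5 to 21.1. In both rows the 4 mice kept the same order.

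Pancreatic amylase digests starch. The row AMY2 matched several copies of the gene cluster in the gene table, so which copies it reads is uncertain. It read 4219.5 in control 4, 2783.8 in mutant 1, 197.8 in control 5 and 350.2 in mutant 2, against -1.2 to 14.7 in the 8 others. Here mutant 2 exceeded control 5, unlike for the other 5 members that were within noise in 8 mice. Cel, the bile salt-dependent lipase, read 7178.6, 3597.1, 713.2 and 119.6 in control 4, mutant 1, control 5 and mutant 2, and was between -10.6 and 2.1 elsewhere.

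Pnlip, the main triglyceride lipase of the pancreas, was within noise in all 12 mice. Its highest value, 24, was again in control 4, and the others lay between -2.9 and 6.6. Of the 10 members it was the one with no level in any mouse, control 4 included. Whether its probe detects the transcript was not tested.

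The 6 members within noise in the 8 other mice (Ela2a, Cpb1, Cpa1, Cel, Amy2 and Try10) can be set against control 4 directly. Mutant 1 held 38.3% to 73.0% of the control 4 level (median 52.9%), control 5 held 4.69% to 10% (median 8.22%) and mutant 2 held 1.46% to 8.30% (median 3.27%). The same was done for 11 other acinar enzymes and secretory proteins that were within noise in the 8 mice. Their medians were 63.6% in mutant 1, 7.85% in control 5 and 5.02% in mutant 2. The spread between rows was wider there. Ctrc, chymotrypsin C, held 25.0% of the control 4 level in mutant 1. Gp2, the membrane protein of the zymogen granule, was higher in mutant 1 (701.7) than in control 4 (580.6). The ratio of mutant 1 to control 4 was thus not the same for all rows, and with 1 array per mouse it has no error. Control 5 lay within noise for Ctrc (-0.3), and mutant 2 for Ctrc (7.8) and for Pla2g1b (21.0), a secreted phospholipase, among others, so shares of this size for dim rows carry little information.

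**Figure D2:**
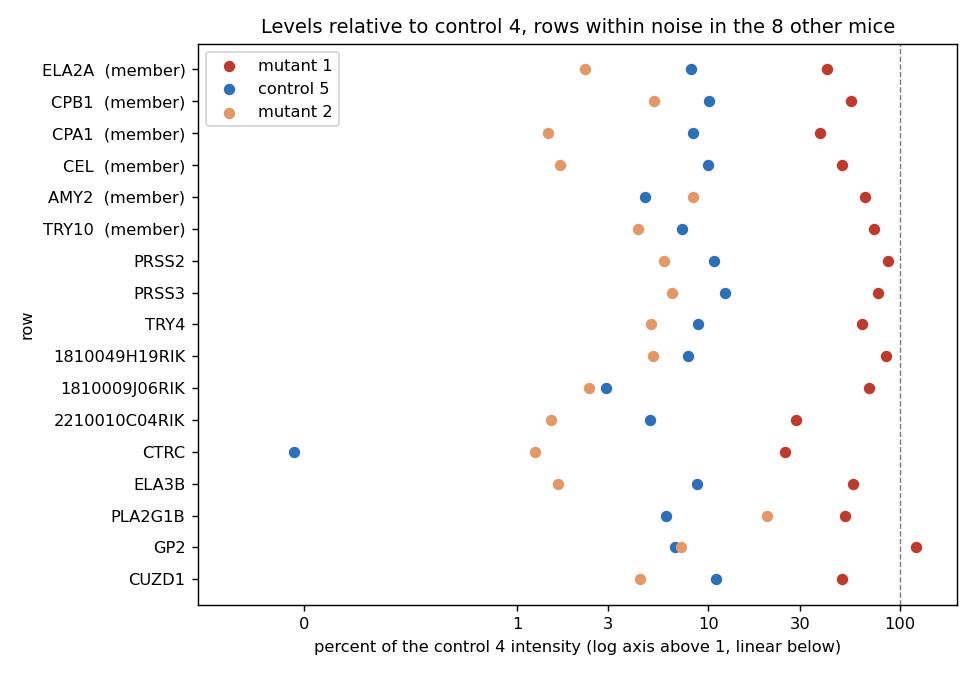
Each point is the intensity of a row in mutant 1, control 5 or mutant 2 as a percent of its intensity in control 4 (horizontal, logarithmic above 1 and linear below), for the 6 members and 11 other acinar rows within noise in the 8 other mice. Mutant 1 sits between 25.0% and 120.9%, and control 5 and mutant 2 mostly below 12.25%, with Pla2g1b in mutant 2 at 20.2%.

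Acinar genes outside the members followed the same mice. Of 26 measured rows of secreted acinar proteins, 21 had control 4 and mutant 1 as their highest pair. Over all 18090 rows this held for 179 (0.989%). Both mice were at least 3 times above the higher of the noise limit and the 8 others in 26 rows (0.144%). These comprised 7 members, 14 listed acinar proteins, 3 rows on no list here (EG436523, EG386551 and AMY2-2), the row of Erp27 and the insulin gene Ins2. The row nearest to the members in pattern was EG436523, today's Gm5771, with a root mean square difference of 0.115 on the log2 scale over the 12 mice, and the next was EG386551 (Gm5409, 0.145). The first read 3974.4 in control 4, 2554.5 in mutant 1, 376.3 in control 5 and 155.0 in mutant 2. After these came Ela3b (today's Cela3b, 0.222), an elastase-like protease, and Try4 (0.254), of the trypsinogen family. Ela3b read 7234.4 in control 4, 4111.0 in mutant 1, 627.7 in control 5 and 118.4 in mutant 2, and 1.6 to 15 in the 8 others.

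Of the regulators of the acinar programme, Ptf1a and Rbpjl were dim. Nr5a2 (80.5 to 269.3), Gata4 (136.6 to 259.8) and Pdx1 (110.2 to 651.1) were above noise in all 12 mice. Control 4 and mutant 1 were not the highest pair for Nr5a2, Gata4 or Pdx1. Ptf1a lay within noise in all 12 mice, at 8.5 in control 4. Its partner Rbpjl was above noise in control 4 alone (84.3) and read 25.7 in mutant 1 and 7.2 in control 5, against -7.8 to -0.8 in the 8 others. Erp27, a chaperone of the endoplasmic reticulum, read 325.5 in control 4 and 141.8 in mutant 1, and 1.6 to 23.5 in the remaining 10 mice. Some listed markers of other pancreatic cells were highest in the same pair, at low level, and most were not. Ins2, insulin of the islet beta cell, read 337.1 in control 4 and 100 in mutant 1, and -9.3 to 2.3 in the 10 others, control 5 and mutant 2 included. Ins1, the other insulin gene, read 146.9 and 66.7 in that pair against 16.9 to 37.4. Of 14 islet rows 2 had this pair as the highest, and of 11 duct and stellate rows also 2, as did 0.989% of all rows. Among the duct and stellate rows was Spp1, osteopontin, at 80.1 in control 4 and 70.7 in mutant 1 against -11.1 to 18.1. On the islet list, Iapp read 20.6 in control 4, 35.4 in mutant 1 and 53.9 in control 1. Slc30a8, G6pc2, Nkx6-1 and Pcsk1 lay within noise in all 12 mice.

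Markers of other tissues were read in the same way. None of the 12 liver rows, 11 stomach and duodenal gland rows or 11 fat, lymph node and spleen rows had control 4 and mutant 1 as the highest pair. The summed stomach and duodenal gland rows were nevertheless highest in mutant 1 (502.7, against 244.2 in control 4 and medians of 328.65 in controls and 314.4 in mutants). Within that list the row GIF read 150.4 in mutant 1, 2.8 in control 4 and at most 85.1 in the rest. The name GIF matched several genes in the gene table, so which gene the row reads is uncertain. Pga5 gave 306.5 of the mutant 1 sum, and 6 of the 11 rows of this list lay within noise in all 12 mice. The summed liver rows were the highest of each group in control 4 (8243.9) and mutant 1 (8764.3), with mutant 5 close to the latter at 8707.2. Most of that sum was the row of Cps1, at 7723.2 in control 4, 8505.4 in mutant 1 and 6445.8 to 8505.4 over all mice. Of the 12 liver rows 9, Alb among them, lay within noise in all 12 mice. What part these tissues have in the results was not tested. The labelled tissue was checked with 13 enterocyte rows. Their summed intensity was 80182.3 in control 4 and 83515.3 in mutant 1, within the range of 73289.3 to 90510.3 over all mice. Vil1, a microvillus protein, read 7220.5 to 11085.7 and the apolipoprotein Apoa4 32947.1 to 38448.7. Apoa4 alone gave 34336.4 of the sum in control 4 and 35788.7 in mutant 1, so a few bright rows governed that sum. The rows of Fabp1 and Fabp2, fatty acid binding proteins that define enterocytes, lay within noise in all 12 mice, as did Akp3, an intestinal alkaline phosphatase. Whether the probes of these rows detect their transcripts was not tested, so their values do not show that the genes are silent.

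A second kind of member had a level in every mouse. Ela1 (today's Cela1), an elastase that mice also make outside the pancreas, read 2127.4, 1176.9, 1166.0, 3393.8, 1495.4 and 1246.6 in controls 1 to 6. In mutants 1 to 6 it read 1774.9, 917.8, 834.8, 900.0, 977.9 and 592.5. Control 4 was 1.60 times the highest of the 8 other mice, a far smaller excess than for Ela2a. Control 1, with Ela2a at -0.4, had the next highest level of the 12. Apart from mutant 1, every mutant lay below every control.

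Ctrb1, chymotrypsinogen B, read 429.7, 267.4, 193.3, 6942.4, 575.6 and 144.7 in controls 1 to 6 and 4163.5, 143.6, 91.8, 55.9, 136.0 and 37.0 in mutants 1 to 6. Control 4 and mutant 1 stood 16.2 and 9.69 times above the highest of the 8 others. Without those 2 mice the groups met closely but did not overlap, with control 6 at 144.7 and mutant 2 at 143.6. The 4 other controls read 144.7 to 429.7 while their Ela2a, Cel and Try10 were within noise.

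Clps, colipase, the cofactor that anchors pancreatic lipase to fat droplets, read 1675.1, 995.9, 789.4, 14384.2, 2854.5 and 1128.9 in controls 1 to 6. Mutants 1 to 6 read 9621.9, 2658.3, 4766.1, 1845.6, 4054.1 and 3743.1. Control 4 and mutant 1 were again the highest. Among the 8 other mice, controls lay between 789.4 and 1675.1 and mutants between 1845.6 and 4766.1. Control 5, at 2854.5, lay inside the mutant range. The direction was opposite to that of Ela1 and Ctrb1.

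**Figure D3:**
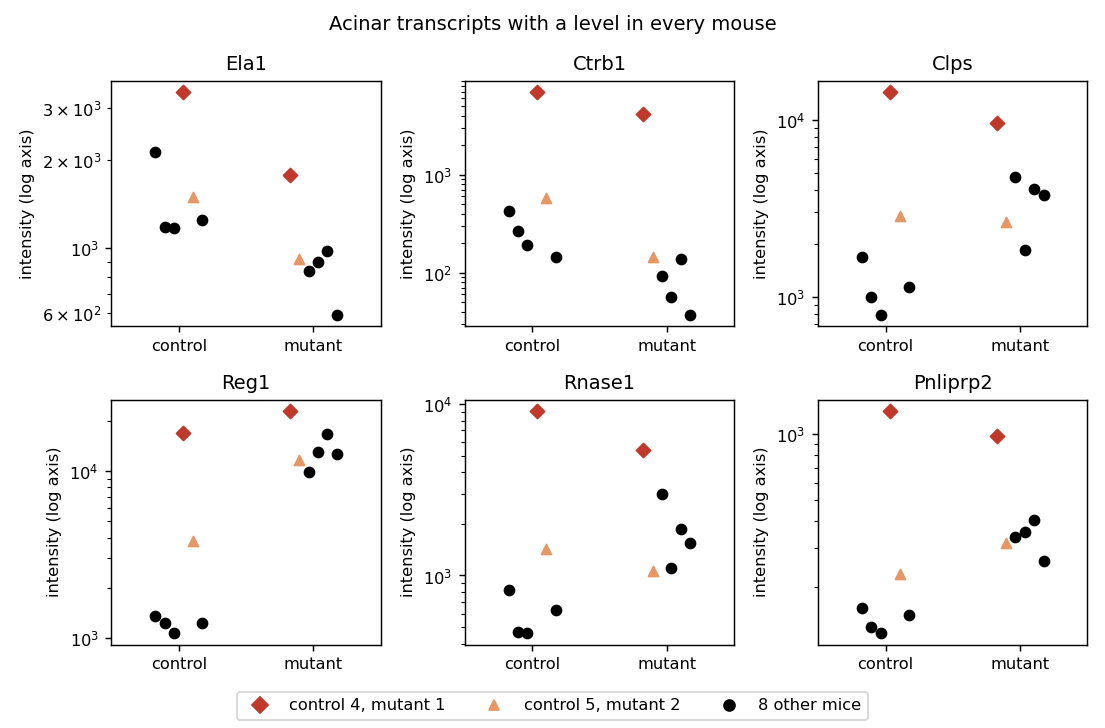
Deposited intensity (vertical, logarithmic, different range in each panel) of Ela1, Ctrb1, Clps, Reg1, Rnase1 and Pnliprp2 in each control and mutant mouse. Diamonds are control 4 and mutant 1, triangles control 5 and mutant 2, and circles the 8 other mice. In each panel shown, circles of controls and mutants form separate ranges, as in 12.2% of all rows. Other acinar rows with a level in every mouse, not shown, overlapped there: Pnliprp1 (152.7 to 335.2 in controls, 81.6 to 187.4 in mutants), Ctrl, Spink3 and Zg16.

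In the comparison of mutants with controls over all 12 mice, no member passed (limma, adjusted p from 0.108 to 0.990), while 9.19% of all rows did (4.71% higher and 4.48% lower). No member had groups without overlap, against 4.69% of rows. Ela1 came nearest, with 1768 ± 875 in controls and 999.7 ± 402.8 in mutants (mean ± SD, n = 6 each) and a log2 difference, mutant minus control, of -0.74 (SE 0.27, limma adjusted p = 0.108). For Clps the means were 3638 ± 5317 and 4448 ± 2739 (log2 difference 0.93, SE 0.59, adjusted p = 0.417). For Ctrb1 they were 1426 ± 2707 and 771.3 ± 1662.4 (-1.11, SE 0.93, adjusted p = 0.572). The SD of Ela2a in controls, 6784, was larger than its mean of 3037. The median SE over the 10 members was 1.04 on the log2 scale, against 0.0747 over all rows. Every member but Pnlip, Ela1 and Clps had an SE of at least 0.93. Each group held 1 mouse with a high and 1 with a lower acinar level.

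Without control 4 and mutant 1, 3 members passed, beside 7.70% of all rows: 1 was higher and 2 lower, as were 4.01% and 3.69% of rows. Ela1 was lower in the mutants with a log2 difference of -0.70 (SE 0.17, limma adjusted p = 0.0245), and so was Ctrb1 (-1.19, SE 0.29, adjusted p = 0.0262). Clps was higher (1.23, SE 0.32, adjusted p = 0.0382). Leaving out control 4 alone was enough for Clps to pass (1.49, adjusted p = 0.0279), and leaving out mutant 1 alone for Ela1 (-0.91, adjusted p = 0.0384). The differences of Ela1 and Ctrb1 were close to those with all 12 mice, and it was the SE that had moved. Control 4 and mutant 1 were left out for their levels of these same members. Leaving out the extreme of a group tends to lower the SE by itself, so these adjusted p values describe and do not test. The same holds for values without overlap and for the fit without 4 mice. Values of Ela1 and Ctrb1 did not overlap between the groups of 5, as in 7.27% of rows. When control 5 and mutant 2 were left out too, Clps was higher (1.56, SE 0.29, adjusted p = 0.0135) and Ctrb1 lower (-1.09, SE 0.27, adjusted p = 0.0418), beside 5.98% of all rows (3.08% higher, 2.89% lower). Ela1 then missed the threshold at -0.71 (SE 0.20, adjusted p = 0.0729), although its 4 controls and 4 mutants did not overlap, as in 12.2% of rows. Each of the 7 other members had an adjusted p of at least 0.630 in that fit.

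The 12 mice were also kept together with an acinar level as a covariate. An index was averaged over the 16 acinar proteins outside the members whose median was within noise. Not all 16 followed the members. Reg2 read 1174.6 in mutant 1 and -3.1 in control 4, Amy1 was highest in control 1 (38.6), and Serpini2 was within noise in all 12 mice. This index was added after seeing the data, and its rows were listed with earlier results known. The adjusted p values with either index below therefore describe and do not test. The index of 16 rows was 9.34 in control 4, 9.04 in mutant 1, 7.16 in control 5 and 6.85 in mutant 2, and 6.10 to 6.21 in the others (log2 scale). With it 2 members passed, both lower, beside 8.71% of rows (4.20% lower): Ela1 at -0.71 (SE 0.15, limma adjusted p = 0.011) and Ctrb1 at -1.0 (SE 0.23, adjusted p = 0.0155). Clps was at 0.99 (SE 0.30, adjusted p = 0.0553). With an index over all 26 listed rows, some of which have their own level in gut, 4 members passed beside 8.59% of rows (4.12% lower), all of them lower: Ela1, Ctrb1, Cpa1 and Cel. Outside control 4, control 5, mutant 1 and mutant 2, that index was higher in the 4 mutants (7.79 to 7.97) than in the 4 controls (7.47 to 7.62). Cpa1 and Cel were within noise in all 8 of those mice.

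**Figure D4:**
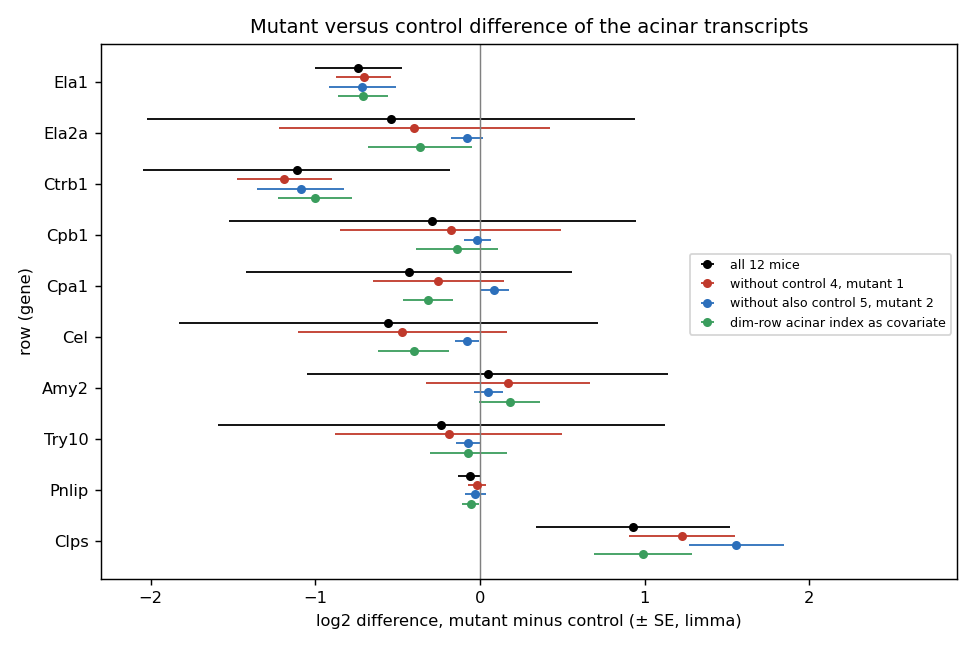
Fitted log2 difference, mutant minus control, with its SE (horizontal) for each member (vertical) over all 12 mice (black), without control 4 and mutant 1 (red), without also control 5 and mutant 2 (blue), and over 12 mice with the index of 16 dim acinar rows as covariate (green). The error bars of Ela2a, Cpb1, Cpa1, Cel, Amy2 and Try10 shrink to values near 0 in blue, while Ela1 and Ctrb1 stay below 0 and Clps above it in all 4 fits.

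The same 2 kinds were met among acinar proteins outside the members, but not every listed row was of either kind. Spink3 (17539.0 to 24640.2) and Zg16 (2828.2 to 25149.9) had a level in every mouse without control 4 and mutant 1 as highest pair. Neither passed over 12 mice (limma adjusted p = 0.662 and 0.812). Over 12 mice 2 of the 26 listed rows were higher in mutants and none lower (median log2 difference -0.08, against -0.01 over all rows), where 4.71% of all rows were higher and 4.48% lower. Without control 4 and mutant 1 there were 4 higher and none lower, beside 4.01% and 3.69% of all rows. Without all 4 mice 5 were higher and none lower, beside 3.08% and 2.89% of all rows. These 5 were Pnliprp2, Rnase1, Reg1, Klk1 and Dmbt1. Pnliprp2, a lipase related to Pnlip, read 122.1 to 160.4 in the 4 controls that remained and 262.0 to 406.1 in the 4 mutants that remained, and 1281.1 in control 4. Its log2 difference went from 0.64 (SE 0.43, limma adjusted p = 0.451) over 12 mice to 0.84 (SE 0.12, adjusted p = 0.00197) without control 4 and mutant 1. Rnase1, the pancreatic ribonuclease, likewise read 459.9 to 819.2 and 1110.7 to 2979.3 in those 8 mice. It passed without all 4 mice (1.49, SE 0.26, adjusted p = 0.0113), and not without the pair alone (1.11, adjusted p = 0.0519). The tissue kallikrein Klk1 read 157.5 to 229.1 and 246.2 to 462.1 in the 8 mice, and passed without the pair (0.64, SE 0.18, adjusted p = 0.0464).

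Reg1 and Reg2 are lectins of the regenerating family, placed here on the list of secreted acinar proteins. Reg1 was above noise in all 12 mice, so its level is not read as acinar alone. Reg1 passed in each of the fits above, at a log2 difference of 2.55 (SE 0.55, limma adjusted p = 0.0103) over 12 mice and 3.32 (SE 0.14, adjusted p = 2.25e-06) without all 4. It read 1063.2 to 1359.2 in controls and 9892.4 to 16839.6 in mutants among the 8 mice, with 17025.0 in control 4 and 3838.1 in control 5. Reg2 read 1174.6 in mutant 1 and 45.1 in mutant 2, but -3.1 in control 4 and -11.1 in control 5. It was therefore within noise in the mouse with the highest level of every member. Dmbt1, a secreted scavenger receptor protein, rose over 12 mice by a log2 difference of 1.39 (SE 0.13, adjusted p = 1.52e-05), and its control 4 level, 10158.0, was in the range of its other controls (7271.2 to 10394.7).

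Among 18 rows of acinar regulators and secretory machinery, 3 were higher and 1 lower over 12 mice (median log2 difference -0.03), beside 4.71% and 4.48% of all rows. One of the higher was Bhlhb8 (Bhlha15, or Mist1), a factor of secretory cells, at 6.5 to 15.4 in 5 controls, 47.5 in control 4 and 39.7 to 101.1 in mutants (0.59, SE 0.12, limma adjusted p = 0.00674). Its difference was 0.75 (SE 0.12, adjusted p = 0.00747) without the 4 mice. Gatm, which makes a creatine precursor, was lower and lay within or just above noise throughout. Nr5a2, a nuclear receptor of acinar and crypt cells, did not pass (-0.27, SE 0.18, adjusted p = 0.453). The counts in the other lists are small and are to be read against the 9.19% of all rows that passed, since 1 row of 11 to 14 is near that share. In the islet list 1 of 14 rows passed (lower), in the duct and stellate list 3 of 11 (higher, among them the chloride channel Cftr), in the liver list 1 of 12 (lower), in the stomach and duodenal gland list 1 higher and 1 lower of 11, in the list of fat, lymph node and spleen 0 of 11, and in the enterocyte list 3 of 13 (higher).

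Over all rows, 1663 passed with 12 mice and 1393 without control 4 and mutant 1, of which 1221 were among the 1663. Leaving out any 1 mouse gave 1247 to 1694. Without all 4 mice 1081 passed, 922 of them among the 1663. Among rows that passed with 12 mice or without the pair, the 10 whose log2 difference moved most when the pair was left out held Reg1 and Clps of the acinar rows. Reg2, which passed in neither fit, moved from 0.83 to 0.17, more than any of these 10. The one of the 10 that moved most was Lipf, gastric lipase, on no acinar list, from -0.87 (limma adjusted p = 0.147) to -1.30 (adjusted p = 0.0122). Lipf read 93.4 in control 4 against 157.8 to 606.8 among the rest of the controls, against 333.3 in mutant 1 and 75.2 to 131.0 among the rest of the mutants. Control 4 was thus its lowest control and mutant 1 its highest mutant. In a whole piece of tissue, fewer cells of a type and less RNA per cell cannot be told apart, and how acinar RNA came to be in these samples was not tested.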

How the data were processed

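Gene expression in proximal small intestine of 6 control and 6 mutant mice was measured on a 1-colour Illumina array (biotin-labelled cRNA, per the labels' protocols). The table as deposited holds linear intensities for 18090 gene symbols. GenomeStudio and Partek appear in the submitters' processing notes without version or role. Of the deposited intensities 22.5% lay below 0, and column medians ran from 41.8 to 43.4, so they were background-subtracted and normalized between arrays. Which array version was used is not given in those notes. A further table with 24 columns whose headings match no sample label was not used.

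The intensities were corrected with normexp (offset 50), quantile normalized and log2 transformed. Groups, from the sample titles, were compared with limma 3.58.1 in R 4.3.3 (lmFit, eBayes, two-sided, Benjamini-Hochberg over all rows, threshold 0.05), and all rows were kept. The offset shrinks differences of dim rows, quantile normalization hides a shift of all rows, and the number of mice limits the precision. The script was tested on simulated data. Row names, older symbols in upper case, were matched to RefSeq (GRCm38.p6): 14092 by symbol, 3043 by a single synonym. Alternatives were no background correction, an offset of 16, no quantile step, log2(value + 50), dim rows removed, trend and robust variances, array weights, the replicate number as block, mice left out, and acinar levels as covariate. Leaving out 4 mice and the index of 16 dim rows were added after seeing the data. The members, the gene lists and the mice to leave out, control 4 and mutant 1, were chosen with earlier results of these data known. Genes named were the members, genes of the lists, the rows nearest in pattern (members whose highest value was at least 10 times their median gave the pattern) and, among rows past the threshold with 12 mice or without control 4 and mutant 1, the 10 moved most by leaving those mice out. Of these, only some are printed, and 1 listed row is counted in the lists but not otherwise reported here.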

Additional observations from a re-analysis of the deposited data

Results flagged for a closer look

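Within a group of 6 mice, a value was marked where its gap to the nearest other mouse exceeded Dixon's 95% critical share of the group's whole range. Of 90 groups (45 named rows, each in controls and mutants) 60 held such a value. Chance marks about 1 in 20 only for rows chosen without regard to these values. Many of these rows were chosen by them, so the count is not a test. Every mark fell on control 4 (32) or mutant 1 (28). Most of these rows were named because they are acinar transcripts. The members were chosen for their high level in single samples. Some others were named for likeness to that pattern, or for moving when control 4 and mutant 1 were left out. The marks are thus one pattern and not separate findings, and the gaps ran from 0.647 to 0.981 of the range.

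Among the members, control 4 stood apart from the other controls for Ela2a (16839.6), Ctrb1 (6942.4), Cpb1 (7895.9), Cpa1 (3894.3), Cel (7178.6), Amy2 (4219.5), Try10 (8348.8), Pnlip (24) and Clps (14384.2). Mutant 1 stood apart from the other mutants for Ela1 (1774.9), Ela2a (7043.9), Ctrb1 (4163.5), Cpb1 (4396.1), Cpa1 (1490.4), Cel (3597.1), Amy2 (2783.8) and Try10 (6093.9). The intensities in brackets are those of the mouse that stood apart. For Pnlip the value was within noise. Ela1 was marked in mutants only, since control 1 was also high.

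Outside the members, control 4 stood apart for Ela3b (7234.4), Try4 (5364.8), Try5 (6072.8), EG436523 (3974.4), EG386551 (4766.8), Pnliprp1 (14382.4), Ctrl (4402.2), Ctrc (632.3), Gp2 (580.6), Prss2 (648.1), Sycn (1403.7), Pla2g1b (103.8), Reg1 (17025.0), Rnase1 (9131.2), Pnliprp2 (1281.1), Klk1 (964.6), Tff2 (1346.9), Rbpjl (84.3), Bhlhb8 (47.5), Erp27 (325.5), Ins1 (146.9), Ins2 (337.1) and Spp1 (80.1). Mutant 1 stood apart for Ela3b (4111.0), Try4 (3409.6), Try5 (5115.6), EG436523 (2554.5), EG386551 (3357.1), Pnliprp1 (12291.4), Ctrl (1191.5), Ctrc (157.9), Gp2 (701.7), Prss2 (562.7), Sycn (1135.2), Reg2 (1174.6), Pnliprp2 (982.5), Tff2 (567.3), Rbpjl (25.7), Erp27 (141.8), Ins2 (100) and Spp1 (70.7). It stood apart as well for Fabp1 (-1.9), where all 12 values lay within noise, and for Lipf (333.3), which is on none of the acinar lists. Reg2 was marked in mutant 1 and not in control 4.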

How the results depend on the processing

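Over all rows the count of calls, 1663, stayed within 1.5 times under every alternative except the one without the 4 mice control 4, control 5, mutant 1 and mutant 2 (1081, fewer samples). For the members the count was 0, with 1 to 4 called under some alternatives: 3 without control 4 and mutant 1, 4 with the index of 26 rows as covariate, 2 with the index of 16 dim rows, 2 without the 4 mice, and 0 to 1 when any 1 mouse was left out (Clps without control 4, Ela1 without mutant 1). With the replicate number as a block 1702 rows and 1 member passed (Ela1, limma adjusted p = 0.0381). No label says that the numbers pair the mice. Deviations of same-numbered mice correlated at -0.0968 to 0.232. Correlations of differently numbered mice were not computed, so whether the numbers pair the mice was not tested. No member passed without background correction, with an offset of 16, without quantile normalization, with log2(value + 50), with dim rows removed, with trend and robust variances or with array weights. Pnlip had no value with dim rows removed.

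Directions turned for members whose differences are small beside their SE, and none of the turned values passed. When any 1 mouse was left out, the log2 difference ran from -1.56 (without mutant 1) to 0.62 (without control 4) for Ela2a, and between the same fits from -1.15 to 0.68 for Cpb1, -1.12 to 0.43 for Cpa1, -1.48 to 0.45 for Cel, -0.73 to 0.95 for Amy2 and -1.23 to 0.81 for Try10. For Pnlip it ran from -0.095 to 0.00071. Amy2 was at -0.21 with the index of 26 rows, and Cpa1 at 0.089 without the 4 mice. Ela1 and Ctrb1 stayed negative and Clps positive in every fit run. Signal over background limits Pnlip, whose 12 values were all within noise.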
